A study of Drosophila melanogaster with 6 samples.

Results

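Peaks of the chromatin protein Cmi in white prepupae were set against those in wandering larvae of the third instar, the stage just before. The peaks were taken from 2 lists made by chromatin immunoprecipitation followed by sequencing (ChIP-seq), and those on the arms 2L, 2R, 3L, 3R, 4 and X were kept, which gave 9107 of 9236 prepupal and 6426 of 6487 larval peaks. These 15533 peaks are part of 37144 in all 4 lists of the series, which also holds lists from embryos and from S2 cells, an established line derived from fly embryos. A prepupal and a larval peak formed a pair when they had 1 bp or more in common, and no measured height entered this rule.

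Chromatin came from white prepupae and from wandering larvae of the third instar, collected as whole animals from culture bottles, and was precipitated with an antiserum against Cmi. The genotype is given as Y cn bw sp for both stages, and also for the S2 samples. The embryo list comes from data published earlier that the submitters processed alongside, and belongs to none of the labelled samples, so no label gives its genotype, age or number of libraries. For prepupae and larvae, age in hours and the number of animals per library were not given in the sources used here. Each stage has 1 ChIP library, so the differences have no replicate check and no test was made of any of them. In such mixed tissue, fewer cells that carry Cmi at a site and less Cmi per cell cannot be told apart. Positions are on the genome build dm3, counted from 1.

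Cmi, also named Lpt, belongs to the Drosophila MLR complex, in which the methyltransferase Trr places a single methyl group on lysine 4 of histone H3. That mark is typical of enhancers, and the complex is known as a coactivator of the receptor for the steroid hormone ecdysone. A pulse of ecdysone at the end of the larval period starts metamorphosis, during which many larval tissues break down and imaginal discs form the adult body. The white prepupa is the short stage at the beginning of that process.

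The 2 lists overlapped in most of their sequence, but the prepupal list was cut into more and shorter peaks. Prepupal peaks covered 6.79 Mb and larval peaks 7.62 Mb. The median width was 495 bp in prepupae, with 25% of peaks at or below 309 bp and 25% at or above 891.5 bp, and 795 bp in larvae, with 480 and 1468 bp as the corresponding limits. The smallest peak was 220 bp wide in prepupae and 320 bp in larvae. Of the prepupal peaks, 2445 (26.8%, exact binomial 95% interval 25.9 to 27.8) were narrower than the smallest larval peak. Among them 60.5% (58.5 to 62.4) had no larval counterpart, against 29.6% (28.5 to 30.7) of the wider prepupal peaks. A narrower peak also has less sequence with which to meet a larval one.

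Of the prepupal peaks, 5657 (62.1%, 61.1 to 63.1) met a larval peak, and of the larval peaks 4389 (68.3%, 67.1 to 69.4) met a prepupal peak. These intervals, and all others on shares of peaks, cover counting error over peaks and not the spread between animals. Intervals on medians likewise cover only the peaks, pairs or edges of these lists, and not the spread between animals or libraries. The rule was seldom decided by a few bases. Of the 6029 overlaps, 165 were 50 bp long or shorter, with a smallest value of 1 bp, and the median overlap was 511 bp. On the other side of the threshold, 92 prepupa-only and 44 larva-only peaks ended within 50 bp of a peak of the other stage.

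Shared sequence amounted to 4.54 Mb, which is 66.9% of the prepupal and 59.6% of the larval peak sequence and 46.0% of the 9.87 Mb covered by either list. The sequence outside this overlap was made up differently in the lists. In prepupae it came to 2.24 Mb, of which 1.51 Mb (67.4%) lay in peaks without any larval counterpart, 0.649 Mb (28.9%) in ends that reached past a larval peak and 0.0821 Mb (3.66%) between larval peaks that 1 prepupal peak connected. In larvae it came to 3.08 Mb, of which 1.20 Mb (39.1%) lay in larva-only peaks, 1.45 Mb (47.1%) in ends past the outermost prepupal edges and 0.427 Mb (13.9%) in gaps between prepupal peaks. In the lists as deposited, larval sequence outside the overlap was thus mostly in peaks that also held shared sequence. Prepupal sequence outside it was mostly in peaks that held none. With each prepupal peak extended by 50 bp on both sides, which gives the lists the same smallest width, 64.6% of larval peak sequence was covered in prepupae. With an extension by 150 bp the share was 71.7%. The division into ends, gaps and stage-only peaks was not repeated after extension, so its dependence on width was not tested.

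**Figure D1:**
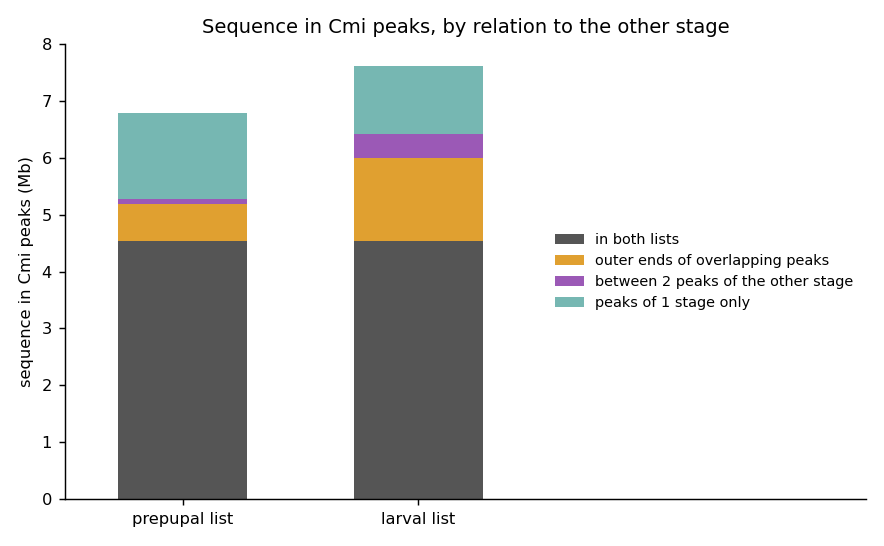
Sequence in Cmi peaks on the main arms, in Mb, for the prepupal list (left bar) and the larval list (right bar), divided by its relation to the other stage. The part in both lists is 4.54 Mb in each bar; larvae hold 1.45 Mb and prepupae 0.649 Mb in outer ends, and prepupae hold more in peaks of 1 stage only, 1.51 Mb against 1.20 Mb.

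Overlapping peaks formed 4017 separate groups. In 2754 of them (68.6%) 1 prepupal peak met 1 larval peak. In 954 groups (23.7%) several prepupal peaks met 1 larval peak, in 127 (3.16%) 1 prepupal peak met several larval ones, and in 182 (4.53%) several met several. Division of a larval peak was thus the usual form of an unequal match.

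Where peaks matched one to one, the prepupal peak was mostly the narrower one. The median width in these 2754 pairs was 696 bp in prepupae and 931 bp in larvae. The median of the ratio of prepupal to larval width was 0.783 (95% order-statistic interval 0.763 to 0.804), with quartiles of 0.536 and 1.10. The prepupal peak was narrower in 69.2% (67.5 to 71.0) of pairs and wider in 30.5% (28.8 to 32.3). Narrowing by 2-fold or more was found in 595 pairs (21.6%) and widening by 2-fold or more in 145 (5.27%), and these shares are at once those of all pairs compared. Widths of the 2 stages were moderately related, with Spearman's rho of 0.53 over 2754 pairs, which come from the same 2 libraries.

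The ratio varied with peak width. Pairs were ordered by the geometric mean of both widths. The narrowest of 4 classes had a median ratio of 0.661 (0.628 to 0.684), and the next 0.746 and 0.775. The widest class (1183.1 to 7281.84 bp) had 0.890 (0.864 to 0.912). The smallest widths, 220 bp in prepupae and 320 bp in larvae, limit the ratios possible among narrow pairs. The order of the classes therefore does not show that narrow peaks shrank more. The inward shift of an edge was similar in these classes, with medians of 76, 72.5, 98.5 and 93 bp. Classes by larval width alone, which share a value with the ratio, gave another order, with 1.12 in the narrowest, then 0.738, 0.667 and 0.740. Median inward shifts in these were -38.5 (outward), 62, 149 and 202.5 bp. Classes by prepupal width, which also share a value with the ratio, had ratios of 0.450, 0.701, 0.929 and 0.987. Their shifts were 178.5, 98, 28 and 0.5 bp, so the similar shifts held only for the order by both widths. The 3 one-to-one pairs with the widest larval peaks were examples of broad pairs. On X, a prepupal peak of 6873 bp (12644071 to 12650943) lay inside a larval peak of 7715 bp (12643762 to 12651476). On 3R, a prepupal peak of 6953 bp lay inside a larval one of 7445 bp (13525307 to 13532751), and on 2R one of 6325 bp inside one of 6827 bp (7088758 to 7095584). The ratios were 0.891, 0.934 and 0.926.

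The edges of one-to-one pairs moved inward by similar amounts on both sides. The left prepupal edge lay a median of 81 bp inside the larval one (quartiles -89 and 261.75 bp) and the right edge 87.5 bp inside (quartiles -79 and 274.25 bp), where negative values mean that the prepupal peak reached farther out. Pooled, the median inward shift was 84 bp (76 to 92), with the 2 edges of a pair counted as separate values. The 2 shifts of a pair were only loosely related, with Spearman's rho of 0.13. Accordingly the prepupal peak was nested in the larval one in 43.6% (41.7 to 45.4) of pairs, the larval peak was nested in the prepupal one in 16.0% (14.7 to 17.4), and the prepupal peak was displaced to the right in 19.7% (18.2 to 21.2) and to the left in 20.7% (19.2 to 22.3). Not one of the 2754 pairs had the same ends. Midpoints differed by a median of 129.75 bp in either direction and by 358.35 bp or more in the outer 10% of pairs, with a signed median of -7.5 bp, so there was hardly any common displacement along the chromosome. The prepupal midpoint fell inside the larval peak in 92.4% of pairs.

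**Figure D2:**
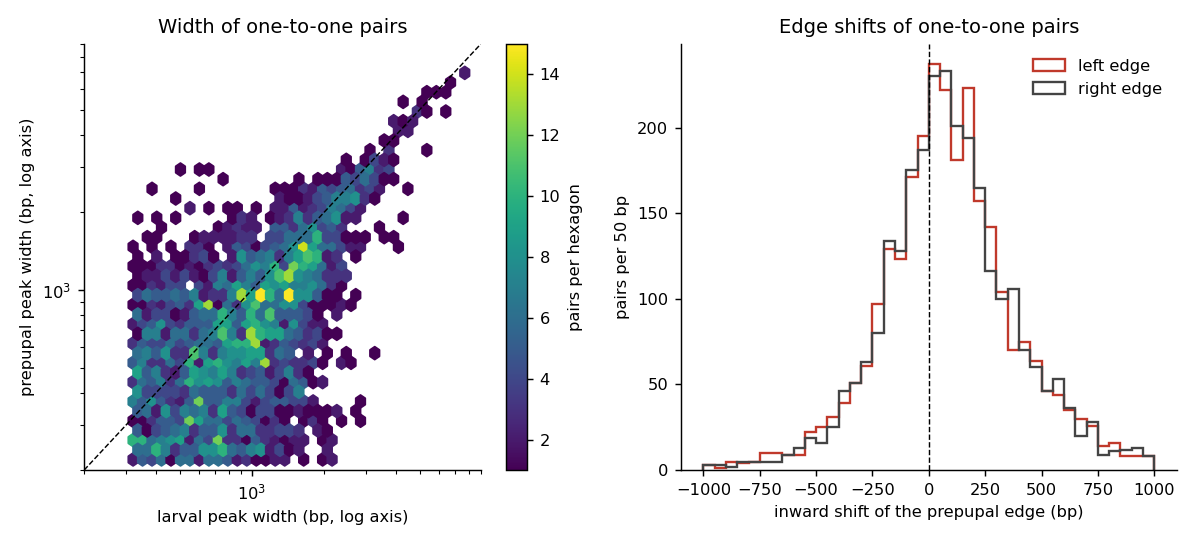
Left, width in bp of the 2754 one-to-one pairs, larval on the x axis and prepupal on the y axis, both logarithmic, with a dashed line of equal width; most hexagons lie below the line, and the widest pairs lie close to it. Right, histogram of the inward shift of each prepupal edge in bp, left and right edges as separate lines, positive when the prepupal edge lies inside the larval peak; both centre between 80 and 90 bp, and 44 left and 69 right edges beyond 1000 bp are not shown.

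The narrowing depended on how the widths were set. With prepupal peaks extended by 50 bp on both sides the median ratio was 0.907 and the inward shift 33 bp, still in the same direction. With an extension of 150 bp on both sides, which closes the gap between the median widths of the lists before peaks that come to overlap are merged, the ratio was 1.10 and the shift -65 bp, the opposite direction.

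The extremes ran both ways. The strongest narrowing was on X, where a larval peak of 2238 bp (2527839 to 2530076) met a prepupal peak of 221 bp, a ratio of 0.0987. It was followed by a larval peak of 2209 bp on 2R (14013055 to 14015263) with a prepupal one of 225 bp, and one of 2032 bp on 3L (17905582 to 17907613) with a prepupal one of 223 bp. Each of these prepupal peaks was within 5 bp of the smallest width in the list. The strongest widening was also on X, where a prepupal peak of 2372 bp (18867595 to 18869966) enclosed a larval peak of 393 bp, a ratio of 6.04. On 3L a prepupal peak of 2827 bp (9412360 to 9415186) enclosed a larval one of 504 bp, and on 2L one of 1923 bp (633454 to 635376) enclosed one of 344 bp.

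Of the 4389 larval peaks with a counterpart, 1191 (27.1%, 25.8 to 28.5) were divided into 2 or more prepupal peaks. The reverse, a prepupal peak that joined 2 or more larval peaks, was found for 336 of 5657 (5.94%, 5.34 to 6.59). Division into 2 was most frequent, with 890 larval peaks, followed by 205 divided into 3, 64 into 4, 20 into 5, 7 into 6, 3 into 7, 1 into 8 and 1 into 9. Broader peaks were divided more often. Of the narrowest of 4 width classes of larval peaks (320 to 632 bp) 6.40% (5.03 to 8.02) were divided, then 12.3%, 28.5% and, in the broadest class (1811 to 14933 bp), 61.3% (58.3 to 64.2). Division by embryonic and S2 peaks rose with larval width too. Among larval peaks met by 1 prepupal peak, embryonic peaks divided 2.95% in the narrowest and 31.0% in the broadest class. For S2 peaks these shares were 2.17% and 21.8%.

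The pieces of divided peaks stood close together and left most of the larval peak covered. Gaps between neighbouring pieces had a median of 183 bp, 54.1% (51.7 to 56.6) were 200 bp or less and 88.2% (86.6 to 89.8) were 500 bp or less. The median piece was 597 bp wide, and the median divided larval peak 2019 bp. Pieces covered a median of 72.8% of their larval peak, the gaps 12.5%, and the largest piece held a median of 66.2% of the sequence the pieces had in the larval peak. In 349 divided peaks (29.3%, 26.7 to 32.0) all pieces stayed within the larval edges, in 557 (46.8%) an outer piece reached past 1 edge and in 285 (23.9%) past both.

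The share of divided peaks changed with the way neighbouring signals were joined. It was 17.5% (698 peaks) when peaks of both lists up to 200 bp apart were joined, 21.8% (965) after extension of prepupal peaks by 50 bp and 10.7% (479) after extension by 150 bp. After the longest extension, prepupal peaks that joined larval peaks numbered 533 and so exceeded the divided larval peaks.

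The 5 larval peaks with the most prepupal pieces included 4 on X, the arm with 1126 of the 6426 larval peaks. The share of divided larval peaks on X, 27.5%, was close to the 27.1% over all arms. The first spanned 12603 bp (X, 12552404 to 12565006) and met 9 prepupal peaks of 236 to 2177 bp, which covered 75.2% of it and left gaps of 59 to 577 bp. Embryos had 9 peaks there and S2 cells 2. The second, on 2L (16267664 to 16274772, 7109 bp), met 8 prepupal peaks of 287 to 1331 bp that covered 78.6%, with gaps of 60 to 657 bp. The third, on X (3634649 to 3645974, 11326 bp), met 7 prepupal peaks, the largest of 4238 bp, that covered 86.1%, with gaps of 61 to 863 bp. The largest gap in each of these 3 peaks was above 543.1 bp, the value that 90% of gaps between pieces did not exceed. The largest of several gaps passes that value more easily than a single gap, so this does not show that their gaps were unusual.

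The fourth peak differed in form. It lay on X (7584605 to 7594800, 10196 bp) and also met 7 prepupal peaks, but these were 246 to 1131 bp wide, covered 47.2% of it and left a gap of 3522 bp. No embryonic peak was found there, and 2 S2 peaks. The fifth (X, 6751397 to 6757902, 6506 bp) met 7 prepupal peaks that covered 79.5%. In the reverse direction, the prepupal peaks that met the most larval peaks met 4 each. The widest of them was on 3L (17961350 to 17972129, 10780 bp), where the larval peaks, the largest of 3728 bp, covered 63.7% of the prepupal one. The others were on 2L (5252044 to 5257885, 57.5% covered) and on 2R (5436681 to 5441997, 93.6% covered).

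**Figure D3:**
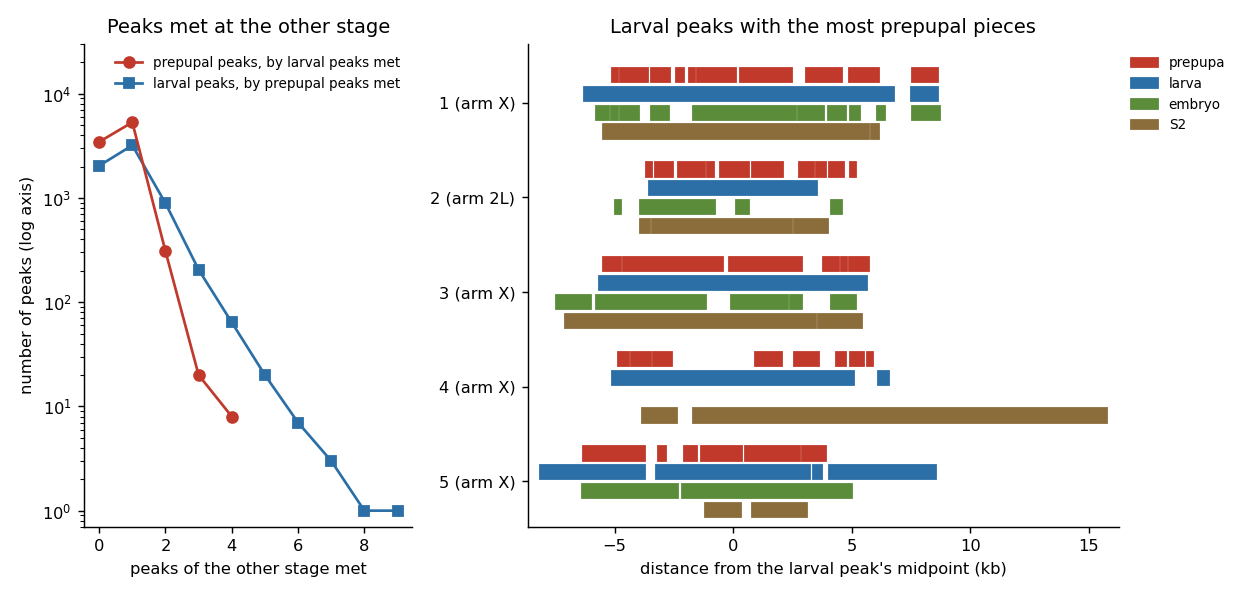
Left, number of prepupal peaks by how many larval peaks they met (circles) and of larval peaks by how many prepupal peaks they met (squares), on a logarithmic axis; 336 prepupal peaks met 2 or more, against 1191 larval peaks. Right, maps of the 5 larval peaks with the most prepupal pieces, with the peaks of each list within 1500 bp, drawn to scale by distance in kb from the larval midpoint; the larval peaks are single bars where the prepupal row holds 7 to 9, and gaps under about 100 bp are barely visible.

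Averaged over peaks, coverage by the other stage was highest in the middle. Since peaks were taken for having a counterpart and edges vary, such an average does not show how coverage runs along a single peak. In larval peaks with a counterpart, cut into 20 equal parts, the prepupal list covered 80.2% of peaks in the 11th part, just past the middle, and 47.7% and 46.6% in the first and last part. The embryo list covered 58.2% at the same central part and 44.5% at either end, and the S2 list 42.6%, 31.9% and 31.0%. Along prepupal peaks with a counterpart the larval list covered 89.8% in the 10th part and 74.5% and 75.5% at the ends. Every profile was close to symmetric.

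**Figure D4:**
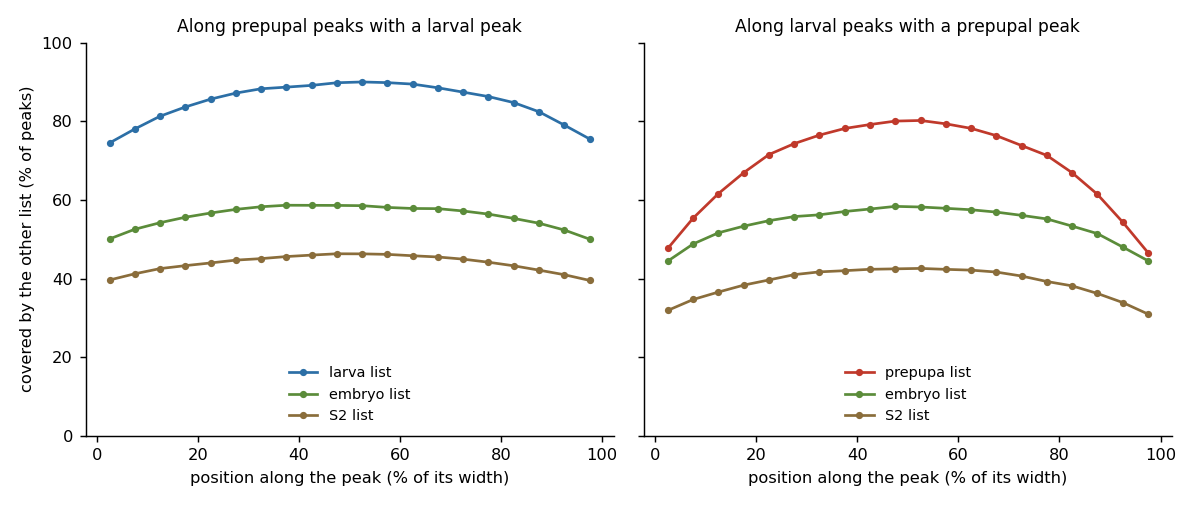
Share of peaks (%) covered by another list at each of 20 equal parts along prepupal peaks with a larval peak (left panel) and along larval peaks with a prepupal peak (right panel); x axis, position in percent of the peak's width. The prepupal list covers 80.2% of larval peaks near the middle and 47.7% and 46.6% at the ends, whereas the larval list covers prepupal peaks in 74.5% or more at every part.

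Peaks found at 1 stage only were narrow and lay farther from shared peaks than shared peaks lay from each other. Of prepupal peaks, 3450 had no larval counterpart, with a median width of 356 bp against 658 bp for the others. Of larval peaks, 2037 had no prepupal counterpart, with a median width of 499 bp against 1099 bp. A wider peak meets the overlap rule more easily, so the rule itself may enter these contrasts of width, by an amount that was not tested. The gap between a prepupa-only peak and the nearest shared prepupal peak had a median of 3669.5 bp (3392 to 4002), and shared prepupal peaks were 467 bp (430 to 509) from the next one. For larva-only peaks the gap was 5049 bp (4532 to 5598), with 2069 bp (1909 to 2254) between shared larval peaks. The short gaps between shared prepupal peaks include those between pieces of 1 divided larval peak.

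A minority of stage-only peaks adjoined a shared peak. Of the prepupa-only peaks 27.0% (25.5 to 28.5) lay within 1 kb of one and 68.5% (66.9 to 70.1) within 10 kb, and of the larva-only peaks 21.2% (19.5 to 23.0) and 67.2% (65.1 to 69.2). At the far end, 6.35% of prepupa-only and 4.42% of larva-only peaks were more than 50 kb away. Median widths differed modestly between classes of distance. Prepupa-only peaks within 1 kb of a shared peak and those 1 to 10 kb away both had a median width of 343 bp. Those 10 kb or more away had 387 bp. For larva-only peaks the values in this order were 448.5, 520 and 503 bp, lowest within 1 kb. The order of the 2 medians of distance held in all alternatives run: with peaks of at least 320 bp they were 4765 bp in prepupae and 5680 bp in larvae, and with neighbours within 200 bp joined 4478.5 and 5873 bp. The difference was smallest with prepupal peaks extended by 150 bp, with 4874 bp (4498 to 5395) in prepupae and 5194 bp (4686 to 5700) in larvae, whose intervals overlapped.

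**Figure D5:**
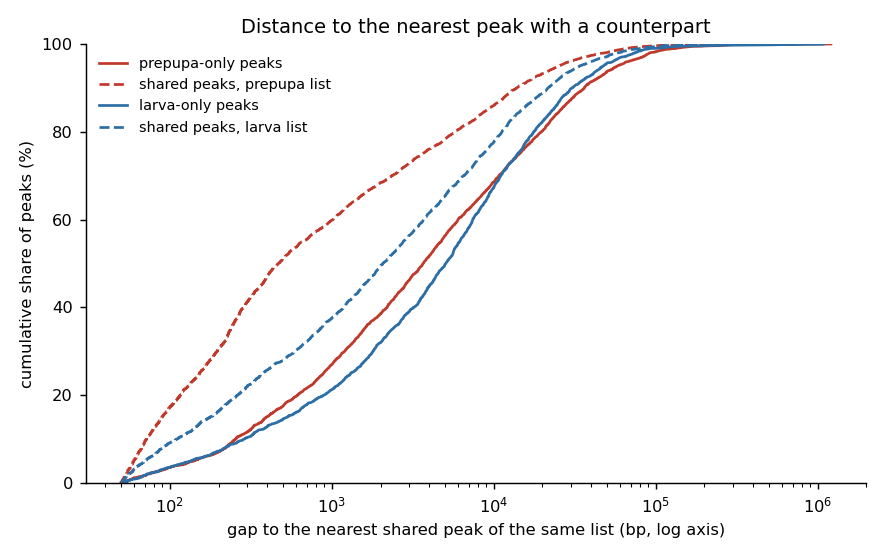
Cumulative share of peaks (%) by the gap in bp, on a logarithmic axis, to the nearest shared peak of the same list, for stage-only peaks (solid) and shared peaks (dashed) of the prepupal and larval lists. Both solid lines lie to the right of the dashed line of their own list, with medians of 3669.5 bp (prepupa-only), 467 bp (shared, prepupal list), 5049 bp (larva-only) and 2069 bp (shared, larval list).

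The peaks farthest from any shared peak lay near the centromeric ends of arms. The 3 most remote prepupa-only peaks were 1207511 bp (2R, 371007 to 371555), 765831 bp (2R, 812818 to 813235) and 608359 bp (3L, 24362467 to 24363011) from one, and none of them met an embryonic or S2 peak. The most remote larva-only peaks were on 2R (482744 to 483219, 1096227 bp away, and 506284 to 507490, 1071956 bp away) and on 3L (24530293 to 24530693, 776596 bp away). Each of these 3 met 1 embryonic and no S2 peak.

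The 6 widest stage-only peaks, 3 for each list, lay at varied distances from a shared peak, from 638 to 30062 bp. The widest prepupa-only peak spanned 3096 bp on 3L (5609470 to 5612565), 1115 bp from a shared peak, where embryos had 2 peaks. The next was on 3R (9632279 to 9634311, 2033 bp), 3919 bp from a shared peak, and the third on 3L (1456779 to 1458705, 1927 bp), 30062 bp from one and without embryonic or S2 peaks. The widest larva-only peak spanned 2578 bp on 2L (12434325 to 12436902), 10582 bp from a shared peak, and met 1 embryonic and 2 S2 peaks. The second widest, on 3L (3197268 to 3199511, 2244 bp), was 17359 bp from a shared peak and met 2 embryonic and 1 S2 peak. A larva-only peak of 2156 bp on X (15763404 to 15765559) was 638 bp from a shared peak.

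Prepupa-only peaks often followed each other along the chromosome with no larval peak between them. Such runs of 3 or more held 1729 of them (50.1%), and runs of 3 or more larva-only peaks held 521 (25.6%). The contrast depended on the setting. With peaks of at least 320 bp, which left 6662 prepupal peaks, the shares were 37.7% and 36.9%, and with the 6426 widest peaks of each list 36.4% and 38.7%. With prepupal peaks extended by 50 bp they were 48.3% and 26.0%, and with an extension by 150 bp 45.5% and 26.5%. Runs were examined after the lists had been seen. The longest prepupal run had 16 peaks of 220 to 1501 bp over 82.2 kb of 3R (14816605 to 14898827), where embryos had 27 peaks and S2 cells 0. Another had 14 peaks over 87.6 kb of X (4274228 to 4361786), with 7 in embryos and 0 in S2 cells. A denser one had 13 peaks within 20.9 kb of 3R (10498831 to 10519689), with 8 in embryos and 5 in S2 cells. The longest larval run had 10 peaks of 347 to 1049 bp over 133 kb of X (1534115 to 1667033), with 2 embryonic and 3 S2 peaks, and the next had 8 peaks over 32.0 kb of chromosome 4 (199338 to 231357), with 6 embryonic and 0 S2 peaks.

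The share of larval peaks kept was lower on the small, mostly heterochromatic chromosome 4 than on the large arms, and the share of prepupal peaks with a larval counterpart was highest on X. On 2L, 2R, 3L, 3R and X, 59.1% (57.0 to 61.2, on 3L) to 69.0% (66.6 to 71.3, on X) of prepupal peaks met a larval peak and 66.9% to 70.9% of larval peaks met a prepupal one. On chromosome 4, 34 of 52 prepupal peaks (65.4%, 50.9 to 78.0) and 30 of 72 larval peaks (41.7%, 30.2 to 53.9) did so, and prepupal peaks covered 0.0332 Mb there, against 0.0617 Mb for larval peaks. Of the larval peak sequence on chromosome 4, 0.0216 Mb was kept. The share kept was 56.3% on X and 60.2% to 60.9% on the other 4 large arms. With 72 larval peaks the interval is wide. It lies below the intervals of all other arms, but this order is no test of a difference between arms. The intervals treat peaks as independent and leave out the spread between animals and libraries. Neighbouring peaks may not be independent, since 8 of the 42 larva-only peaks on chromosome 4 followed each other within 32.0 kb.

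The X chromosome and 3R stood at opposite ends in the median change of width. The median ratio of prepupal to larval width was 0.712 (0.681 to 0.749) in 499 one-to-one pairs on X and 0.854 (0.829 to 0.890) in 649 pairs on 3R, with 0.758 to 0.809 on the other arms. The intervals of 2L (0.720 to 0.834), 2R (0.729 to 0.827) and 3L (0.748 to 0.824) reached into that of X, and that of 2L also into that of 3R. On chromosome 4, with 26 pairs, the interval was 0.523 to 0.993 and held the medians of both X and 3R. The median inward shift of an edge was 129 bp (104 to 153) on X and 65.5 bp (49 to 83) on 3R. Larval peaks were also widest on X, with a median of 895.5 bp against 771 bp on 3R, and prepupal medians were 508 and 500 bp. The share of prepupal peak sequence that lay in larval peaks was highest on X, at 74.5%, against 63.4% to 67.5% on the other arms. Divided larval peaks made up 25.2% to 30.1% on the large arms and 4 of 30 (13.3%, 3.76 to 30.7) on chromosome 4.

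Short peaks also marked the prepupal list against the embryo and S2 lists. The smallest width was 220 bp in prepupae, 280 bp in embryos and 340 bp in S2 cells. Median widths were 495, 540 and 722 bp. The ratios and divided shares below are from the lists as deposited, without extension, so these different limits enter them. In one-to-one pairs the median width ratio was 0.710 (0.680 to 0.736) for prepupal against embryonic and 0.766 for prepupal against S2 peaks, whereas larval peaks stood at 0.801 (0.779 to 0.826) against embryonic and 0.937 (0.906 to 0.968) against S2 peaks. Prepupal peaks divided 20.4% of the embryonic and 29.6% of the S2 peaks they met, and larval peaks 9.03% and 12.5%. Of the larval peaks they met, embryonic peaks divided 15.4% and S2 peaks 14.3%. Midpoints of prepupal and larval partners were closer, at 129.75 bp, than those of the other 5 combinations of lists, at 174.75 to 222 bp.

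Larval sequence that was not kept in prepupae was still often covered in the embryo and S2 lists, which took no part in the pairing. Embryonic peaks covered 64.0% of kept larval sequence, 49.2% of the lost ends, 46.1% of the gaps between pieces and 53.3% of larva-only peaks. In the 500 bp on either side of shared larval peaks, outside any peak of either stage, they covered 28.8%. S2 peaks covered 52.5%, 35.1%, 50.9% and 26.6% of the same classes and 20.7% of the flanks. Within divided larval peaks alone, embryonic peaks covered 65.3% of kept sequence, 45.5% of ends and 46.1% of gaps, and S2 peaks 60.2%, 43.2% and 50.9%. Of prepupa-only sequence, by contrast, embryonic peaks covered 26.1% and S2 peaks 13.9%, below the flanks of shared prepupal peaks with 28.0% and 20.6%. This last order turned when the other lists' peaks were set to 500 bp around their midpoints. Embryonic peaks then covered 16.5% of prepupa-only sequence and 9.44% of the flanks, and S2 peaks 4.75% and 4.51%. Embryonic coverage of larva-only sequence, at 31.6%, then also exceeded that of kept larval sequence, at 24.3%.

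Taken over all widths, larval peaks that prepupae divided were also divided more often in the other lists, but not in every width class. Of divided larval peaks with an embryonic counterpart 36.5% (33.5 to 39.7) met 2 or more embryonic peaks, against 12.2% (10.9 to 13.7) of those met by 1 prepupal peak. For S2 peaks the shares were 28.5% (25.4 to 31.8) and 9.98% (8.48 to 11.6). Divided peaks were broader, with medians of 2227 and 1035 bp in the comparison with embryos. In the broadest width class alone the shares were 48.3% (44.2 to 52.4) and 31.0% (26.3 to 36.0) for embryonic peaks and 37.9% (33.7 to 42.3) and 21.8% (17.3 to 26.7) for S2 peaks. In the next narrower class the intervals overlapped, with 44 of 220 peaks (14.9 to 25.9%) and 14.3% (11.7 to 17.4) for embryonic peaks and 15.0% (10.2 to 20.9) and 10.4% (7.66 to 13.6) for S2 peaks. They also overlapped in the 2 narrowest classes, with 5.13% and 2.95% in the first and 12.8% and 6.75% in the second for embryonic peaks. For S2 peaks these classes had the opposite order, with 0 of 24 against 2.17% in the first and 5.80% against 6.13% in the second.

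In fixed windows of 50 kb, the sequence in peaks ranked windows much alike at both stages. Of 2411 windows, 1867 held peak sequence of either stage, with more in prepupae in 717 and more in larvae in 1149. Spearman's rho between the stages was 0.81 over these 1867 windows, which come from the same 2 libraries. The largest excess in prepupae was on 3R (5700001 to 5750000), with 15006 bp in 17 prepupal peaks against 4949 bp in 5 larval peaks. A second on 3R (9600001 to 9650000) held 15009 bp in prepupae and 5788 bp in larvae. The largest excess in larvae was also on 3R (5900001 to 5950000), with 6676 bp in 13 prepupal peaks against 16602 bp in 6 larval peaks, so that the window with more prepupal peaks had less prepupal sequence. The next 4 were all on X, among them the window from 1500001 to 1550000 with 11377 bp in prepupae and 19403 bp in larvae. The 5 windows with the largest excess in prepupae included none on X. Over the whole of X, larval peaks covered 1.48 Mb and prepupal peaks 1.12 Mb. The share of X among all windows is not given here, so these extremes do not describe windows on X in general. Windows were chosen for display after the values had been seen.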

How the data were processed

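The authors deposited each peak list with 3 columns and no header, holding chromosome, start and end (other columns are not there), so heights, folds and read depth are unknown. Per the submitters' processing notes, BWA and MACS2 were used with dm3. Threshold, versions and use of the inputs were not given in the sources used here, and the 3 input samples were not analysed here. Gene tables at hand are on a later build, so no gene was assigned to any peak and no sequence was read.

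Widths, overlaps of 1 bp or more and edge-to-edge gaps were computed on 6 arms with Python 3.11.15, numpy 2.4.6, scipy 1.17.1 and pandas 2.3.3, and figures with matplotlib 3.10.9. The overlap code was tested on simulated data. Intervals are Clopper-Pearson (shares) or order-statistic (medians) at 95%. Shared peaks are those with a counterpart. Regions named are those with the most pieces, the widest, the most changed or the most remote peaks. Alternatives were a 50% overlap, peaks of 320 bp or more, the 6426 widest peaks of each list, joining within 200 bp, extension of prepupal peaks by 150 bp, shared peaks of either list, and embryo and S2 peaks set to 500 bp. The extension by 50 bp was chosen after seeing the data. Members, lists and measures were chosen with earlier results of these data known.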

Additional observations from a re-analysis of the deposited data

Results flagged for a closer look

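Outside the main arms there were 129 prepupal and 61 larval peaks, which no comparison above used. They are listed for that reason alone, since a list of the whole genome can hold peaks there. Of these, 24 prepupal and 34 larval peaks met a peak of the other stage. The mitochondrial genome held 3 prepupal and 10 larval peaks that covered 14314 and 10824 bp.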

How the results depend on the processing

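Each stage has 1 library, read depth is unknown and the lists carry no heights, so a change of binding and a difference between libraries cannot be told apart. No paired analysis was possible because each group has 1 library and no test was made. Values are given for prepupal peaks with a larval peak, larval peaks with a prepupal peak, larval peaks divided, larval sequence covered, width ratio, inward shift, and the gaps of prepupa-only and larva-only peaks. With a 50% overlap the first 3 were 57.6, 64.7 and 21.2% and the gap of prepupa-only peaks 3215 bp. With peaks of 320 bp or more they were 70.4, 61.0, 22.2 and 56.8%, a ratio of 0.830, and 4765 and 5680 bp. With the 6426 widest peaks of both lists they were 71.0, 60.1, 21.5 and 56.3%, 0.833, 4901 and 5819.5 bp. With neighbours within 200 bp joined, divided peaks were 17.5%, covered sequence 60.8%, the ratio 0.817 and the gaps 4478.5 and 5873 bp. With prepupal peaks extended by 150 bp they were 63.2, 70.0, 10.7 and 71.7%, a ratio of 1.10 and a shift of -65 bp, both reversed, and a prepupa-only gap of 4874 bp. Extension widens peaks by construction. With an extension by 50 bp, divided peaks were 21.8%, covered sequence 64.6%, the ratio 0.907 and the shift 33 bp. With embryo peaks set to 500 bp, embryonic coverage of kept, end and gap sequence was 24.3, 18.1 and 15.8%, and with S2 peaks set to 500 bp it was 16.6, 10.3 and 12.5%, so that these 3 classes kept their order in each list. Other values moved by less than their intervals.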
